A study of Mus musculus with 8 samples.

Results

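Y RNAs and 4 other short noncoding RNAs were examined in mouse epidermal cells, 6 of the 27179 genes that the count table lists. The 6 are Rny1 and Rny3, which encode Y RNAs, Rnu12, which encodes the U12 small nuclear RNA, Rmrp and Rpph1, the RNA parts of RNase MRP and RNase P, and Rn7sk, the 7SK RNA. They were found by gene symbol, and each passed the filter on low counts. They had been chosen from measured values of the comparison of aged with adult cells described here. Their differences between the age groups are therefore given as a description, with no p-value for any one of them.

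All animals were C57bl/6J mice. The aged mice were 73 weeks old and the adult mice 17 to 25 weeks old by the labels, with 4 libraries in each group and, by the study's methods, 4 separate mice per condition. The labels give both groups control IgG at 210 µg in 100 µl into the peritoneal cavity, 3 times per week for 12 weeks. The labels' 73 weeks is also the age they give for the treatment, and the methods describe injection from that age on in ageing mice only. The methods also put aged mice in general at a higher age than 73 weeks. They describe total RNA libraries for adult and aged mice, apart from poly(A) libraries for mice given control IgG or antibodies to IL-17A/F. The kit given for the present libraries is the total RNA one. Labels and methods thus differ. Whether the adult mice were injected, and whether the aged mice were older at sampling, is not settled here. Had the injections gone to the aged mice alone, injection and age cannot be told apart. The comparison asks how the epidermal transcriptome differs with age. The epidermis was lifted from the torso skin with dispase, and in these bulk samples fewer cells of a type and less RNA per cell cannot be told apart. Libraries held 75027694 to 90140102 counts, of which 17.3 to 31.1% came from mitochondrial genes. Summed keratinocyte markers stood at 11670 to 15040 CPM (counts scaled to an equal library total by the trimmed mean of M values, TMM) in aged and 10020 to 12750 CPM in adult libraries. The 4 immune markers summed to 76.9 to 223 CPM in aged and 26.7 to 199 CPM in adult libraries, the 5 fibroblast markers to 4.87 to 47.9 CPM and 10.8 to 44.5 CPM, and no marker of the 6 lists was at 0 in the table.

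RNA polymerase III transcribes the Y RNAs, 7SK, RNase P RNA and RNase MRP RNA, all from promoters that lie upstream of the gene, whereas U12 is made by RNA polymerase II. Y RNAs form a stem with a loop and are bound by Ro60 and La, and they have been tied to RNA quality control and to the start of DNA replication. U12 pairs with the branch site of the rare minor-class introns. RNase P trims the leader of transfer RNA precursors, RNase MRP cuts the precursor of ribosomal RNA, and 7SK holds the elongation factor P-TEFb in an inactive particle with Hexim1 and Larp7.

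The sequences of the RNAs with the largest differences, and the start of 7SK as one whose groups overlapped, show how short the former are. They were taken from GENCODE M21 on GRCm38 (mm10), and are printed 5′ to 3′ as DNA letters. Rny3 lies at chr6:47781624-47781725 on the forward strand and Rny1 at chr6:47788069-47788180 on the reverse strand, so that the pair point at each other. Capitals in both mark the stretches of at least 6 bases that they share in the same order. There were 6 such stretches with 48 bases in all, 2 near the 5′ end and 1 near the 3′ end, which lie in the stem that Ro60 binds.
Rny1: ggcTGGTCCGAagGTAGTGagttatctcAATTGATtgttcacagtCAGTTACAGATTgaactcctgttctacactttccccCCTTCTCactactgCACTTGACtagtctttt
Rny3: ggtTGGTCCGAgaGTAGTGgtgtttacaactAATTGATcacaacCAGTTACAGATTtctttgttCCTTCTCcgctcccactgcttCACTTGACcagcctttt
Rnu12 lies at chr15:83149644-83149794 on the forward strand. Capitals mark the stretch at bases 18 to 25 that pairs with the branch site, and the Sm protein site at bases 75 to 81.
Rnu12: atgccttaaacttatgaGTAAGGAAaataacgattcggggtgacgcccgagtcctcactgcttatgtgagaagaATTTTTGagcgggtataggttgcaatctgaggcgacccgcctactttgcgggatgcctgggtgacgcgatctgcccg
Rn7sk lies at chr9:78175303-78175633 on the reverse strand, and its first 120 of 331 bases are shown. Capitals mark GATC, a motif of the 5′ hairpin that Hexim1 binds, found here at bases 13, 42 and 64.
Rn7sk: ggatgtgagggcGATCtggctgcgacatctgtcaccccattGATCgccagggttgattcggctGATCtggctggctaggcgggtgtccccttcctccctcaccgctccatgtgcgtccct
Rmrp, on chromosome 4, spanned 271 bases in GENCODE, and Rpph1, on chromosome 14, spanned 319 bases.

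On the TMM scale both Y RNAs stood lower in every aged library than in any adult library. As counts over the library total, without TMM, the groups overlapped. Adult replicate 4 had 3317 Rny1 and 5875 Rny3 counts of 80625056, and aged replicate 1 had 3611 and 7032 of 82299940. The TMM factor was 0.886 in that adult and 1.05 in that aged library. Rny1 was at 41.8, 39.8, 28.8 and 22.9 CPM in aged replicates 1 to 4. In adult replicates 1 to 4 it was at 66.2, 94.7, 50.9 and 46.4 CPM. The highest aged library lay just under the lowest adult library, and replicates 1 and 2 lay above replicates 3 and 4 in both groups. The means were 33.3 ± 9.01 CPM in the aged and 64.6 ± 21.8 CPM in the adult group (SD, n = 4), a log2 fold change of aged over adult of -0.95 ± 0.26 (SE), or 1.94-fold more in adult cells. These levels rest on 1896 to 3791 counts in the aged and 3317 to 8355 counts in the adult libraries, so that counting error was small beside the spread between animals.

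Rny3, the more abundant of the Y RNAs here, was at 81.4, 81.0, 62.8 and 47.5 CPM in aged replicates 1 to 4. In adult replicates 1 to 4 it was at 159, 229, 100.3 and 82.2 CPM. Adult replicates 1 and 2 stood far above the other 6 libraries, whereas adult replicate 4 was within 1 CPM of the highest aged library. The means were 68.2 ± 16.3 CPM in the aged and 143 ± 66.3 CPM in the adult group (SD, n = 4). The log2 fold change was -1.07 ± 0.32 (SE), or 2.09-fold more in adult cells. Without adult replicates 1 and 2 it was -0.43 for Rny3 and -0.56 for Rny1, an alternative chosen after seeing the data. The ratio of Rny3 to Rny1 counts was steadier than either level, at 1.95 to 2.18 in aged and 1.77 to 2.42 in adult libraries.

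**Figure D1:**
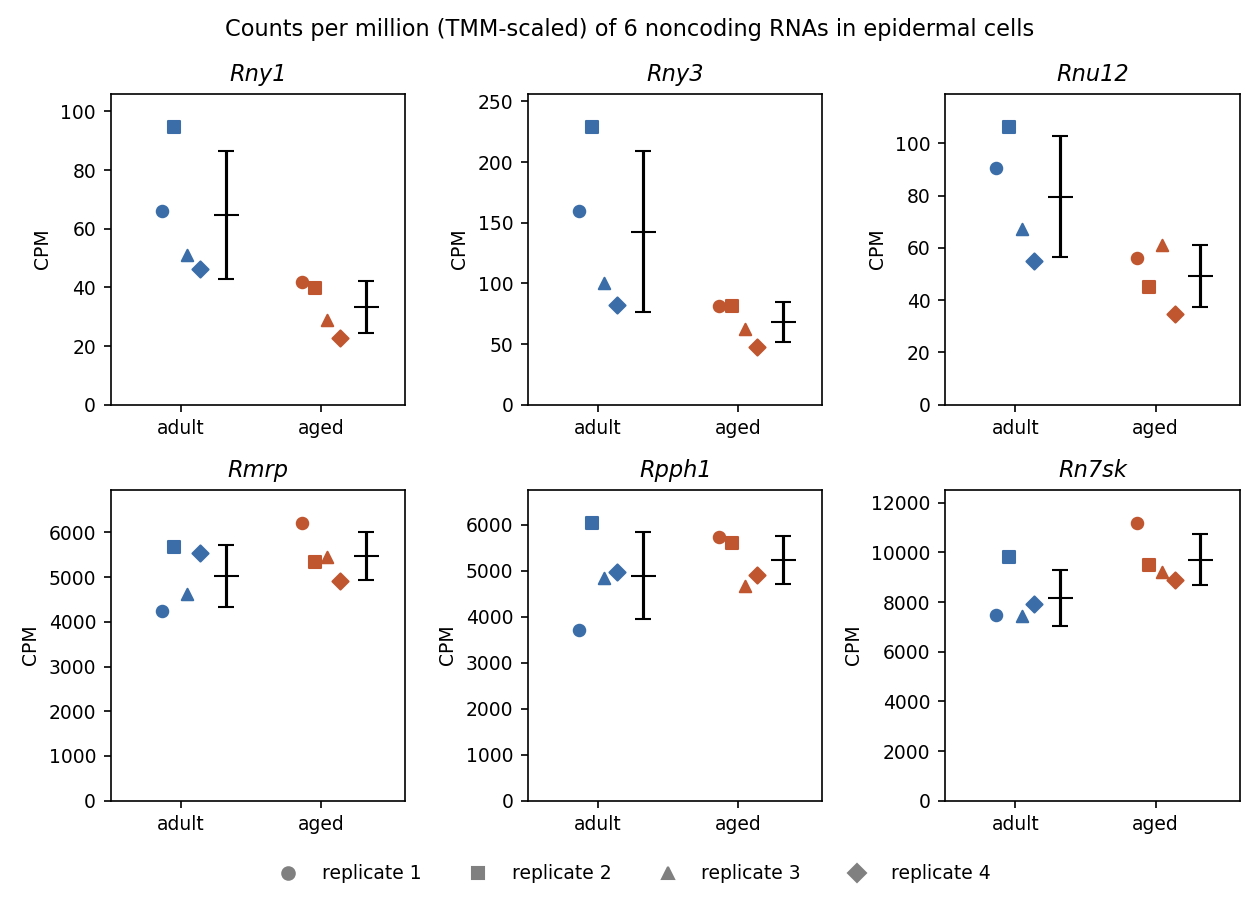
TMM-scaled CPM (vertical axes, each from 0) of the 6 RNAs in adult (blue) and aged (orange) epidermal cells, with 1 point per library, the marker shape giving the replicate number and the bars the mean and SD of 4 libraries. For Rny1 and Rny3 every aged point lies below every adult point, whereas for Rnu12, Rmrp, Rpph1 and Rn7sk the groups overlap.

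U12 RNA was lower on average in aged cells, but the groups overlapped. Rnu12 was at 55.9, 45.0, 61.2 and 34.9 CPM in aged replicates 1 to 4. In adult replicates 1 to 4 it was at 90.4, 106, 67.1 and 54.8 CPM. Aged replicates 1 and 3 were above adult replicate 4, and adult replicates 1 and 2 were again the highest of all libraries. The means were 49.2 ± 11.7 CPM in the aged and 79.6 ± 23.1 CPM in the adult group (SD, n = 4). The log2 fold change was -0.69 ± 0.23 (SE).

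The 3 long RNAs were far more abundant in these libraries, and their age groups overlapped. Rmrp was at 6214, 5338, 5442 and 4917 CPM in aged replicates 1 to 4 and at 4251, 5669, 4628 and 5542 CPM in adult replicates 1 to 4. The range of the adult libraries took in 3 of the 4 aged ones, and the log2 fold change was 0.13 ± 0.18 (SE). Rpph1 was at 5739, 5599, 4671 and 4897 CPM in the aged and at 3715, 6042, 4845 and 4971 CPM in the adult libraries. All 4 aged libraries lay within the adult range, with a log2 fold change of 0.10 ± 0.20 (SE). Rn7sk was at 11190, 9507, 9192 and 8901 CPM in the aged and at 7480, 9816, 7442 and 7918 CPM in the adult libraries. Adult replicate 2 was above 3 of the 4 aged libraries, the other 3 adult libraries were below all aged ones, and the log2 fold change was 0.25 ± 0.20 (SE).

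Of the 6 RNAs, 0 were called by edgeR's quasi-likelihood test at an adjusted p under 0.1 and a difference of over 25%, and 3 had an unadjusted p under 0.05, as did 1060 of the 17702 tested genes (5.99%). The same test called 20 of 17702 genes (0.113%), of which 15 were lower in aged cells (0.0847%). Entering the replicate number as a block left 3 called genes (0.0169%) and 0 of the 6. Limma-voom also called 0 of the 6 and 17 genes in all (0.096%). DESeq2 called 2 of the 6, Rny1 and Rny3, both lower in aged cells, among 128 genes called lower of 19064 with an adjusted p (0.671%). On the TMM scale the groups did not overlap for 2 of the 6, with aged lower, as for 324 of the 17702 tested genes (1.83%). Because the 6 were chosen on this contrast, nothing is read from these counts.

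The levels also differed between the replicate pairs. With age in the fit, replicates 3 and 4 stood below replicates 1 and 2 by a log2 difference of -0.69 ± 0.12 (SE) for Rny1, -0.82 ± 0.16 for Rny3 and -0.38 ± 0.20 for Rnu12. For Rmrp, Rpph1 and Rn7sk this difference was -0.06 ± 0.14, -0.12 ± 0.16 and -0.18 ± 0.14. The study fitted an experimental batch, but the labels do not say which mice shared one, and the pairs are not called a batch. The share of counts from mitochondrial genes was 17.3 to 21.0% in replicates 1 and 2 of both groups and 24.3 to 31.1% in replicates 3 and 4. The 4 immune markers also moved with the pairs, and their sum was 223, 122, 102 and 76.9 CPM in aged and 199, 189, 26.7 and 61.0 CPM in adult replicates 1 to 4. The part of either in the levels of the Y RNAs was not tested.

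Within each replicate pair the Y RNAs were lower in aged cells. This direction follows from the lack of overlap on the TMM scale, so it is no separate support. The log2 fold change of Rny1 was -0.97 ± 0.18 (SE) in replicates 1 and 2 and -0.93 ± 0.14 in replicates 3 and 4. For Rny3 it was -1.25 ± 0.19 and -0.75 ± 0.16, and for Rnu12 -0.96 ± 0.15 and -0.36 ± 0.24. Whether these differ between the pairs was not tested. With the pair as a term, the log2 fold changes were -0.95 ± 0.12 for Rny1, -0.99 ± 0.17 for Rny3 and -0.65 ± 0.20 for Rnu12. In that fit 2 of the 6, Rny1 and Rny3, were called lower, as were 36 of the 17702 tested genes (0.203%). In replicates 3 and 4 alone the same 2 were called lower, among 976 of 17744 genes (5.5%). The pair was proposed with results of these data known.

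**Figure D2:**
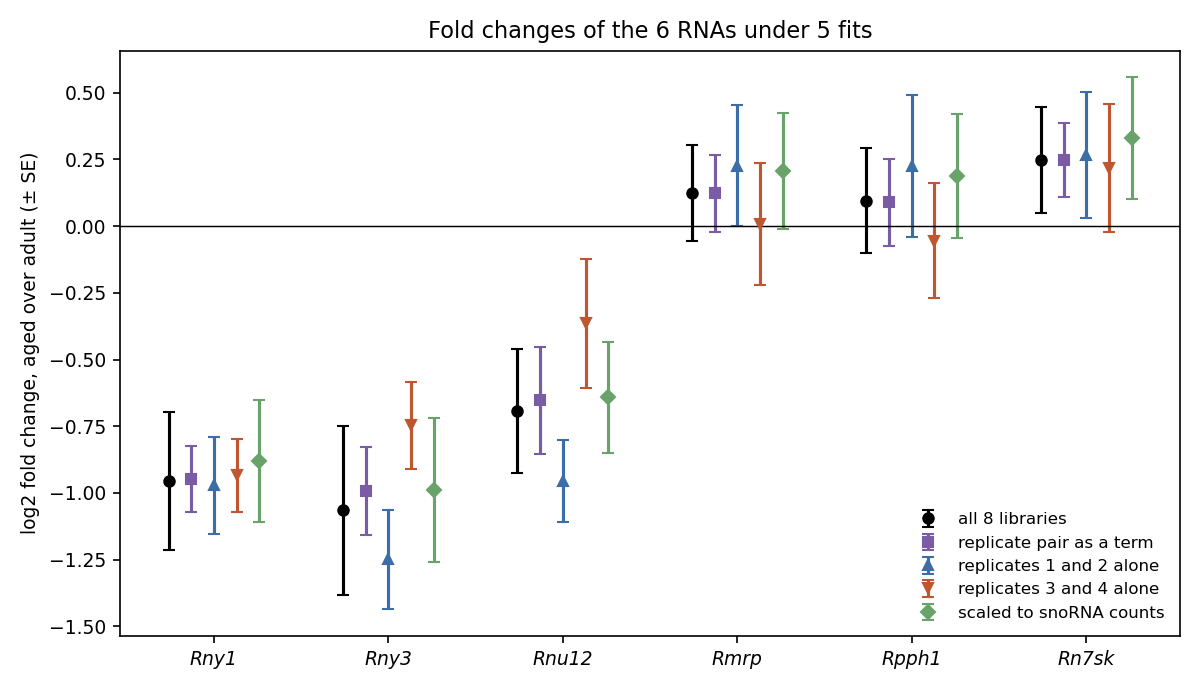
Log2 fold change of aged over adult (vertical axis, points, with SE bars) of the 6 RNAs in 5 fits, which are all 8 libraries, the replicate pair as a term, each replicate pair alone, and scaling to summed snoRNA counts. Rny1 lies between -0.97 and -0.88 in each fit, Rny3 and Rnu12 are nearer to 0 in replicates 3 and 4 than in replicates 1 and 2, and the points of the 3 long RNAs lie between -0.05 and 0.33.

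Read together, the 6 RNAs fell into 2 sets over the 8 libraries. Pearson's correlation of log2 CPM was 0.98 between Rny1 and Rny3, 0.89 between Rny1 and Rnu12 and 0.92 between Rny3 and Rnu12. It was 0.83 between Rmrp and Rn7sk, 0.81 between Rmrp and Rpph1 and 0.75 between Rpph1 and Rn7sk. Between the short and the long RNAs it was -0.16 to 0.09. These points share library, depth and the age difference, and the values are a description. With the group means taken out, Rny1 and Rn7sk correlated at 0.79 and Rny3 and Rn7sk at 0.70, so the low values across sets hold for levels that include the age difference.

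Per kilobase of annotated length, the order over all 8 libraries was Rn7sk (26900 ± 3882 CPM per kilobase, SD), Rmrp (19090 ± 2270), Rpph1 (15570 ± 2255), Rny3 (1044 ± 593), Rny1 (441 ± 205) and Rnu12 (430 ± 156). The ranges of Rn7sk (22410 to 33700) and Rmrp (15460 to 22590) overlapped only at their ends. Rmrp and Rpph1 did not differ beyond their spread, nor did Rny1 and Rnu12, whose order turned between the groups. Per kilobase, Rny1 was at 300.1 CPM and Rnu12 at 328 CPM in aged cells, against 582 and 531 CPM in adult cells. The ranges of Rny3 and Rny1 overlapped between libraries, although Rny3 was above Rny1 in each single library. The 6 RNAs made up 1.61 to 2.45% of all counts.

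How much of a short RNA enters such a library depends on the preparation. Here it was a column-based RNA extraction followed by a total RNA kit with ribosomal RNA removed. Fragmentation lasted 4.5 min at 94 °C, and the paired-end reads had 50 bases. Recovery by length was not measured, so the order of short and long RNAs holds for these libraries only. The deposited table also left out reads that aligned to several places, and sequence copies lower a count in this way. Of the stretches of 50 bases in each RNA, 0 of 53 in Rny3 and 12 of 63 in Rny1 were found unchanged in a transcript of another annotated gene. For Rnu12 they were 55 of 102, from 2 gene models on other chromosomes, and for Rn7sk 192 of 282, from 7 gene models. In Rmrp and Rpph1 the 75 of 222 and 184 of 270 such stretches came from Ccdc107 and Ccnb1ip1, annotated over the same locus. Levels of Rnu12 and Rn7sk are therefore uncertain, and the same holds for both age groups.

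Small nucleolar RNAs (snoRNAs), most of which guide modification of ribosomal RNA, passed through the same preparation. U3, also a box C/D snoRNA, is left out of the snoRNA levels given here. The most abundant of the others were Snora73a, Snora73b, Snord17 and Snora74a, at 198 to 221 bases. The snoRNA sum is therefore not matched in length to the Y RNAs. Without U3, the summed level was 2341, 1842, 2177 and 1693 CPM in aged replicates 1 to 4. In adult replicates 1 to 4 it was 1943, 2313, 1980 and 2196 CPM, with the groups overlapping. The U3 genes had group means of 143 to 387 CPM, and their groups overlapped. Rnu3b1 to Rnu3b4 were lower on average in aged cells, at log2 fold changes of -0.83 to -0.50. Rnu3a was at -0.166 ± 0.175 (SE). A scaling that includes U3 was not tested. Per 1000 snoRNA reads, Rny1 and Rny3 together had 52.6, 65.6, 42.0 and 41.6 reads in aged replicates 1 to 4. In adult replicates 1 to 4 they had 116, 140.0, 76.4 and 58.6 reads. On this scale aged replicate 2 was above adult replicate 4, so the groups overlapped by 1 library. The means were 50.5 ± 11.3 in aged and 97.7 ± 37.0 in adult cells (SD, n = 4). With libraries scaled to the snoRNA sum, the log2 fold change was -0.88 ± 0.23 (SE) for Rny1, -0.99 ± 0.27 for Rny3 and -0.64 ± 0.21 for Rnu12, and 0.33 ± 0.23 for Rn7sk.

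**Figure D3:**
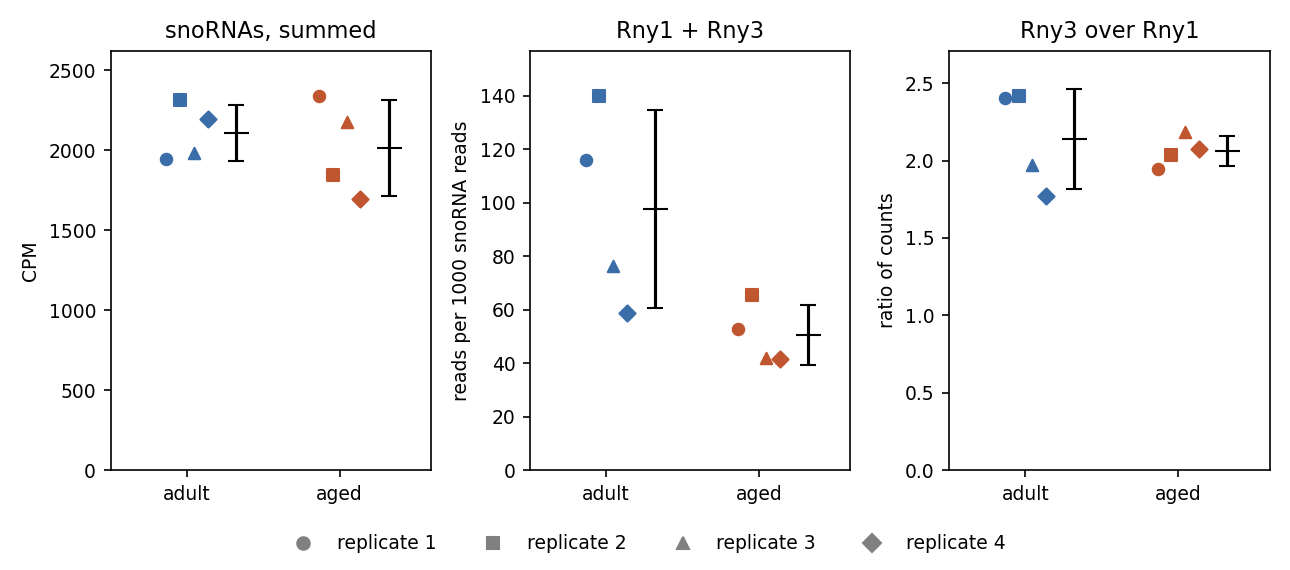
Summed TMM-scaled CPM of snoRNAs other than U3 (left), reads of Rny1 and Rny3 together per 1000 reads of these snoRNAs (middle) and the ratio of Rny3 to Rny1 counts (right), all from 0, in adult and aged cells with 1 point per library and the mean and SD of 4 libraries. The snoRNA sums are 1693 to 2341 in aged and 1943 to 2313 in adult libraries, and the Y RNAs per 1000 snoRNA reads range from 41.6 to 65.6 in aged and from 58.6 to 140.0 in adult libraries.

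Single snoRNAs of the box H/ACA class, the longer of both, were mostly below 0. Of the 36 tested box H/ACA snoRNAs, a class that mostly guides pseudouridylation, 30 had a log2 fold change below 0, with a median of -0.27. Of the 70 tested box C/D snoRNAs, a class that mostly guides methylation and here leaves out U3, 39 did, with a median of -0.08. The summed levels did not follow this order, at 1419 ± 179 CPM in the aged and 1418 ± 138 CPM in the adult group for box H/ACA snoRNAs and at 595 ± 124 and 690 ± 61.1 CPM for box C/D snoRNAs (SD, n = 4). Over all tested genes 47.9% were below 0, with a median of 0.01. Among 131 tested short RNAs other than the 6 and the microRNA precursors, edgeR and limma-voom called 0, while an unadjusted p under 0.05 was found for 3 that were higher and 23 that were lower in aged cells. Over all 17702 tested genes, 405 (2.29%) and 655 (3.7%) had such a p. DESeq2 called 2 of them lower, Snord13 and Scarna3b. MicroRNA precursors, 184 of 652 tested, had a median of 0.09, with 0 called by edgeR or DESeq2 and an unadjusted p under 0.05 for 9 that were higher and 0 that were lower.

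The Y RNAs lay at the lower edge of the short RNAs of their size. Of the 36 tested RNAs within the length range of Rny1, Rny3 and Rnu12, 31 were below 0, with a median log2 fold change of -0.25. The lowest, Snora36b, was at -0.87, so 0 were below Rny1 and 2 were below Rnu12. Across the 131 short RNAs, Spearman's correlation of length with log2 fold change was -0.25, a value across genes, which are not independent replicates. Because the 6 were chosen for their values, their place at the edge is a description.

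**Figure D4:**
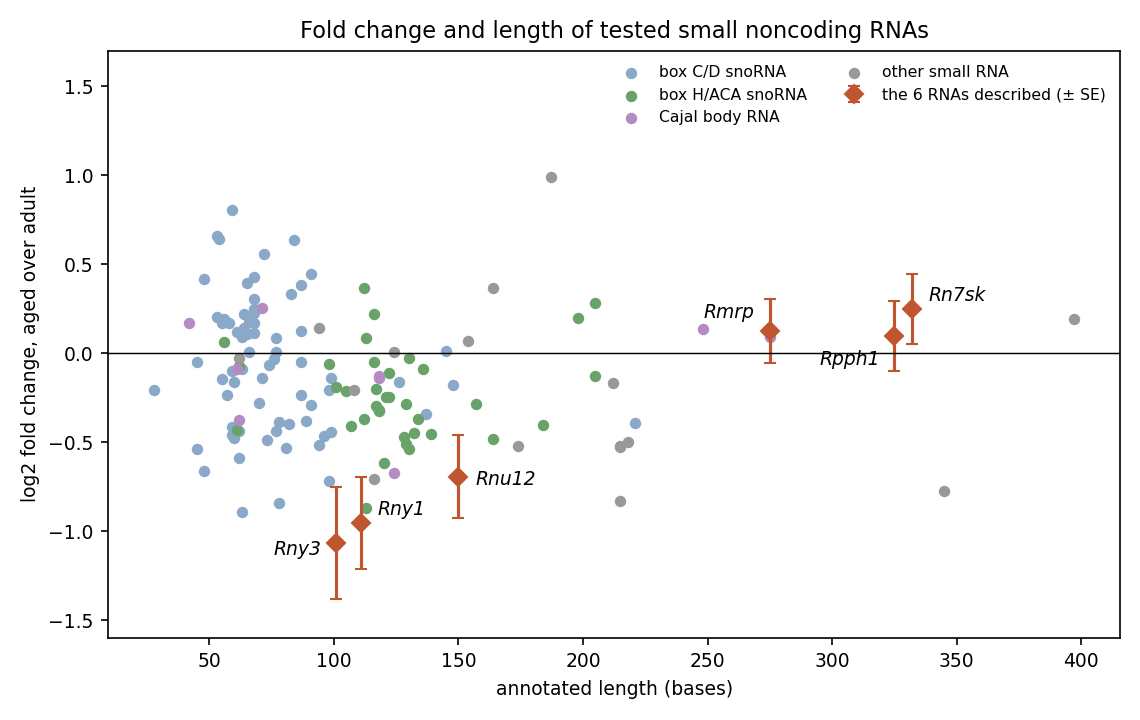
Log2 fold change of aged over adult (vertical axis) against annotated length in bases (horizontal axis) for the 131 tested short RNAs by class and for the 6 RNAs described (orange diamonds, with SE bars). The Y RNAs lie below all short RNAs within the length range of Rny1, Rny3 and Rnu12, where 31 of 36 are below 0, and Rmrp, Rpph1 and Rn7sk lie above 0.

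Vaultrc5, a vault RNA, followed the Y RNAs most closely. Like them it is a product of RNA polymerase III, as are Rmrp, Rpph1 and Rn7sk. Over the 8 libraries, Rmrp, Rpph1 and Rn7sk correlated with Rny1 and Rny3 at only -0.13 to 0.09. Vaultrc5 is annotated at 345 bases, a length that was not measured here. It was first of 14208 genes outside the 6 by Pearson's correlation of log2 CPM with the mean of Rny1 and Rny3 over the 8 libraries (r = 0.98, and 0.97 with the group means taken out). It was at 18.3, 15.4, 14.8 and 9.89 CPM in aged replicates 1 to 4 and at 25.1, 38.0, 19.2 and 17.6 CPM in adult replicates 1 to 4. Aged replicate 1 was above adult replicate 4, and the log2 fold change was -0.77 ± 0.26 (SE, adjusted p = 0.73 in edgeR). The next 9 were Dynlt1b (r = 0.98), a dynein light chain, Snora3 (0.97), 9330133O14Rik (0.96), Zfp574 (0.94), Snord55 (0.93), BC018473 (0.93), Cryzl2 (0.92), Sectm1b (0.92) and n-R5s103 (0.92), a copy of the 5S ribosomal RNA gene. Of the 30 genes with the highest correlation, 10 belonged to the snoRNA, Cajal body and other short RNA classes, as did 85 of the 14208 genes compared, and n-R5s103 is not counted in these classes. These genes were ranked by likeness to a pattern that includes the age difference, so their own fold changes of -1.36 to -0.25 are a description.

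In the lists of genes for proteins that bind or process the 6 RNAs, edgeR, DESeq2 and limma-voom called 0 of the tested genes over all 8 libraries. Of 11 Y RNA partners Igf2bp1 was too low to test, and of the 10 tested, 0 were called by edgeR, DESeq2 or limma-voom and 1 was higher at an unadjusted p under 0.05. This was Ncl, for nucleolin, at 273 to 322 CPM in the aged and 164 to 277 CPM in the adult libraries, with a log2 fold change of 0.40 ± 0.15 (SE, adjusted p = 0.78 in edgeR). Ybx3, a cold shock domain protein, was at -0.20 ± 0.15. The median log2 fold change was 0.01 both for the list and for all tested genes. In the list of trimming and decay factors 0 of 20 were called by any of these tools and 1 was higher at an unadjusted p under 0.05, Exosc8, a subunit of the RNA exosome, at 0.27 ± 0.10 (adjusted p = 0.78 in edgeR).

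For the other particles, 0 members were called by edgeR, DESeq2 or limma-voom, and 0 had an unadjusted p under 0.05. For the 11 proteins of RNase P and RNase MRP the median log2 fold change was 0.05, with Rpp25 at 0.33 ± 0.39 (SE) and Rpp30 at 0.31 ± 0.14. The 7 genes of the 7SK particle and P-TEFb had a median of 0.06, with the 7SK chaperone Larp7 at 0.34 ± 0.17 and the 7SK capping enzyme Mepce at 0.20 ± 0.14. The 12 tested of 13 minor spliceosome proteins had a median of -0.01, with Snrnp25 at -0.37 ± 0.22 and Zrsr2 at 0.23 ± 0.13. The 32 genes of RNA polymerase III and its factors had a median of 0.01, with Brf2, which acts at the upstream promoters of the Y RNAs and 7SK, at -0.29 ± 0.16, and Snapc3 at -0.21 ± 0.23. The 13 snoRNA proteins had a median of 0.12, with Nop58 at 0.33 ± 0.16 and Nop56 at 0.23 ± 0.11.

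The nearest annotated neighbours of the Y RNA genes are Pdia4, which encodes a protein disulfide isomerase, and Rn4.5s, a rodent RNA polymerase III RNA. Pdia4 lies 7960 bases from Rny1, whereas Rn4.5s lies 126529 bases from Rny3. Pdia4 was at 60.5 to 81.1 CPM in aged and 65.8 to 77.2 CPM in adult libraries, a log2 fold change of -0.03 ± 0.11 (SE). Rn4.5s was at 74.6, 45.0, 88.6 and 52.8 CPM in aged replicates 1 to 4 and at 136, 102, 71.5 and 64.1 CPM in adult replicates 1 to 4. Its groups overlapped, and the log2 fold change was -0.52 ± 0.28 (SE, adjusted p = 0.84 in edgeR). Beside Rnu12, Poldip3 was at -0.05 ± 0.09 and Cyb5r3 at 0.06 ± 0.14. Beside Rmrp, Rpph1 and Rn7sk, Ccdc107 was at 0.09 ± 0.18, Sit1 at 0.21 ± 0.42, Parp2 at 0.11 ± 0.09, Cilk1 at 0.22 ± 0.15 and C920006O11Rik at 0.01 ± 0.24, and Ccnb1ip1 was too low to test.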

How the data were processed

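Epidermal RNA was measured in 8 libraries, grouped by title. The authors deposited raw read counts per gene. Per the labels and methods, reads were aligned to mm10 with STAR 2.5.2b and counted by featureCounts with its inbuilt annotation. Reads over several genes counted for each, reads aligning to several places were dropped and duplicates kept. The labels also list mm9, and call the RNA polyA although the kit is for total RNA. For the strand setting, the sources used here give nothing.

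Symbols came from RefSeq for 25275 identifiers, and 1886 had none. Counts were tested with edgeR 4.0.16 (R 4.3.3, TMM, its expression filter) and adjusted by Benjamini-Hochberg over 17702 genes, without batch. Alternatives were DESeq2 1.42.0, limma-voom (limma 3.58.1), other scalings and filters, the replicate pair and number, and single libraries left out. p-values measure the spread between these mice.

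The members and lists were chosen with earlier results of these data known. Named genes were the 6 RNAs, the 2 of each list with the largest difference and a mean of at least 1 CPM, the nearest neighbours, and the 10 genes most like the Y RNAs. The deviations of same-numbered libraries correlated across genes at 0.16, 0.41, 0.20 and 0.21 for replicates 1 to 4. The replicate block took the numbers to pair them, on the data alone. Unlike numbers reached 0.30 for aged replicate 4 with adult replicate 3, and 0.24 for aged replicate 3 with adult replicate 4. Both lie above the same-numbered values of replicates 3 and 4, where pairing by number is thus not borne out. Replicates of a group differed beyond counting error, with chi-square values of 73.1 to 420 per degree of freedom.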

Additional observations from a re-analysis of the deposited data

How the results depend on the processing

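Rny1, Rny3, Rnu12, Rmrp and Rn7sk kept their direction under 21 alternatives. The log2 fold change lay between -1.08 and -0.56 for Rny1, between -1.26 and -0.43 for Rny3, between -0.96 and -0.32 for Rnu12, between 0.01 and 0.23 for Rmrp and between 0.18 and 0.34 for Rn7sk, and Rpph1 crossed 0 at -0.05 to 0.23. The lowest sizes for the Y RNAs and Rnu12 came without adult replicates 1 and 2, which was chosen after seeing the data. With single libraries left out, Rny1 ranged from -1.08 to -0.72 and Rny3 from -1.26 to -0.75, both least without adult replicate 2, and the count of the 6 called was 0 each time.

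The number of the 6 called was 2 with DESeq2, where 0.671% of 19064 genes were called lower. With the replicate pair as a term it was 2, where 0.203% of 17702 genes were called lower. In replicates 3 and 4 alone it was 2, where 5.5% of 17744 genes were called lower. With the replicate block it was 0, where 0.0169% of 17702 genes were called in either direction. Among other short RNAs 2 were called by DESeq2, which called 74 genes higher and 128 lower in all. In replicates 3 and 4 alone 7 were called, beside 1159 higher and 976 lower of 17744 genes. Without adult replicates 1 and 2 there were 7, beside 1450 higher and 1114 lower of 18116 genes. In both settings Snord14d, Snord14e and Snora31 were higher, and Rnu3b1, Rnu3b2, Rnu3b3 and Rnu3b4 were lower. Of the partner genes 1 was called in replicates 3 and 4 alone (Snrnp25) and 5 without adult replicates 1 and 2 (Rpp25, Ncl, Ruvbl2, Mepce and Exosc8), named after their values were seen.

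Over all genes, 5 were called higher and 15 lower in aged cells. The numbers higher and lower were 74 and 128 with DESeq2, 21 and 36 with the pair as a term, 1 and 2 with the replicate block, 0 and 0 in replicates 1 and 2 alone, 1159 and 976 in replicates 3 and 4 alone, and 1450 and 1114 without adult replicates 1 and 2. Higher calls were 1 with the library size alone and 10 with snoRNA scaling. With single libraries left out they were 1 to 4 higher and 5 to 12 lower. The causes were not tested. The RNA polymerase III and U12 levels rest on 8 libraries, batches are not known, and the search for U12-type introns was not run.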
